A study of Mus musculus with 119 samples.

Results

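Satellite cells sorted from resting muscle of young Pax7-ROSAYFP mice were compared between the gate with the lowest surface CD34 (CD34Lo) and the gate with the highest (CD34Hi). The comparison holds 8 of the 119 samples of the series, 4 CD34Lo and 4 CD34Hi libraries. They were chosen by their labels and by the number, 1 to 4, in the name of each column of the deposited count table, and CD34Lo and CD34Hi libraries were paired by that number. The table calls the lowest gate Neg, while the labels call it CD34Lo, and the 3 gates of the experiment were matched in order of CD34.

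All 8 libraries share the tissue (skeletal muscle), the age (Young, with no number of days), the genotype (Pax7-ROSAYFP) and the absence of a treatment or injury. In such mice a recombinase expressed from Pax7 switches on yellow fluorescent protein at the ROSA locus, so that cells of the Pax7 lineage are marked. The labels do not say whether the recombinase is inducible or whether the fluorescence was used in the sort. By the series text, cells with CD45, CD31 or Sca-1 were removed and cells with α7-integrin and CD34 were kept. RNA was extracted from the sorted cells without a culture step. The third gate (CD34Med, 4 libraries) came from the same experiment, and 3 experiments with young wild-type (WT) mice gave the comparison with other cells, with 8, 8 and 5 libraries. The labels do not say whether libraries of a gate came from separate or pooled animals. All 8 libraries held counts of both Xist and the Y-linked Ddx3y, as given below, and whether animals of both sexes were pooled was not tested. The p-values reflect the scatter among these libraries, part of which may be technical.

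Satellite cells are the stem cells of skeletal muscle. They lie between the fibre and its basal lamina, express Pax7, and rest until injury. When they leave rest, Myf5 and MyoD set the myoblast program; myogenin (Myog) then directs terminal differentiation, in which cells leave the cell cycle, fuse, and build sarcomeres and the machinery that couples nerve signals to contraction. CD34 is a sialomucin of the cell surface that marks many resting satellite cells. It was the marker of the sort, so its own difference is a check of the gates and not a result.

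The data were raw read counts for 24421 gene symbols. CD34Hi libraries held 4.13 to 7.08 M counts and CD34Lo libraries 5.62 to 6.82 M, a difference within the spread of the libraries (exact two-sided permutation test, p = 0.857). Levels are given in CPM, counts per M of the TMM-scaled library total, mean ± SD with n = 4 per gate, and values of single libraries stand in the order of the numbers 1 to 4. Counts of ribosomal protein genes took 6.94% ± 1.09 of the CD34Hi libraries and 5.06% ± 0.537 of the CD34Lo libraries, and the 50 genes with most counts took 19.4% ± 0.785 and 17.2% ± 0.412. Both shares were lower in all CD34Lo libraries than in all CD34Hi libraries (exact permutation test, p = 0.0286, the smallest that 4 against 4 allows). The permutation tests shuffled the 8 libraries freely and did not use the pairing by number. The part of these shares in the gene results was not tested.

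Cd34 itself stood at 375, 683, 298 and 616 CPM in CD34Hi, at 286, 278, 213 and 209 CPM in CD34Med and at 117, 95.4, 42 and 139 CPM in CD34Lo. Every CD34Lo library lay below every library of the other gates, in the order of the labels.

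Of 12133 genes tested, 215 differed between the gates with the number as a block (1.77%; edgeR quasi-likelihood F-test, Benjamini-Hochberg adjusted p under 0.05). Of these, 160 were higher in CD34Lo (1.32%) and 55 lower (0.453%). The higher genes had a median log2 fold change of 2.96, and 159 of them were higher in all 4 pairs. The lower genes had a median fall of 1.55, and 55 of 55 were lower in all 4 pairs. The test that chose these genes used the same pairs, so agreement of the pairs largely follows from the choice and adds no support. Its share over all genes tested was not computed. Libraries of the gates did not overlap for 137 of the 160 and for 39 of the 55; over all genes tested, 3.18% lay wholly above and 2.68% wholly below. Without the block, 113 genes passed (0.931%), 96 higher (0.791%) and 17 lower (0.14%), and 110 of them were among the 215. Leaving out CD34Hi number 1 or 4, or CD34Lo number 2 or 4, brought the count to 122, 116, 142 and 120. Genes named below that lost their call without the block or without a single library are given with such values. All adjusted p-values are from this test unless another is named. Over all 12133 genes tested, edgeR with the block gave an unadjusted p under 0.05 for 1459. DESeq2 with the block called 336 genes higher and 166 lower. Counts of list members under these settings, given below, stand against those numbers.

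The genes with the largest rises were at or near 0 in CD34Hi cells. The 15 largest among those that passed with and without the block, averaged at least 8 CPM and did not overlap were Chrng, Mybph, Actc1, Tnnt2, Myog, Chrnd, Myh8, Myo18b, Adora1, Tnni1, Tmem8c, E2f8, Myom2, Gpr50 and Myzap, of which 10 stood on the lists of muscle roles below. For 7 of the 160 higher genes CD34Hi held no count at all, and for 16 it held 1 to 3 counts in total. For these, a fitted fold change depends on the prior count of the fit. The ratio of CPM is therefore given with its exact 95% interval, which covers counting error only.

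**Figure D1:**
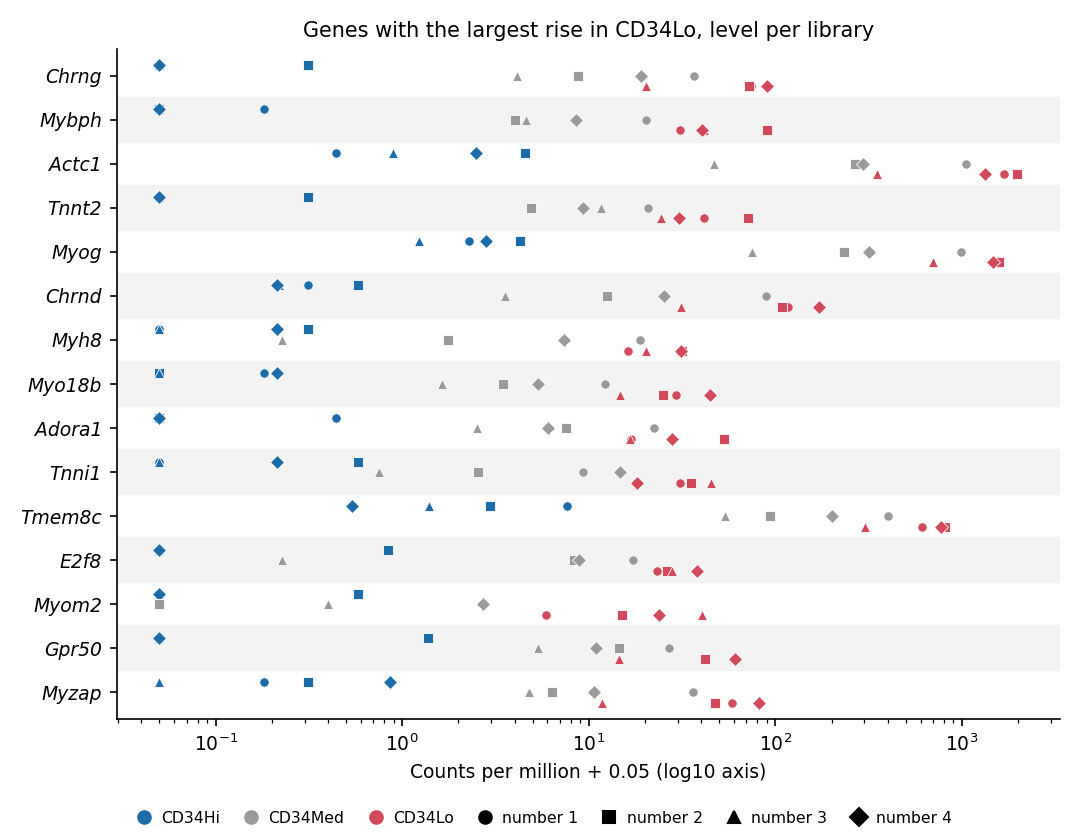
Level of each of the 15 genes in each of the 12 libraries (x axis, CPM plus 0.05 on a log10 axis), coloured by gate, with a symbol for each number and symbols that may cover each other. The CD34Lo libraries lie above all CD34Hi libraries for every gene, and the mean of the CD34Med libraries lies between.

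Myogenic transcription factors came first among the roles. Of 29 genes on the list, 24 were tested, 5 rose, 0 fell, and the median log2 fold change was 0.28, against -0.03 for all genes tested. Myog, the factor of terminal differentiation (chr1:134289989-134292548 of mm10, plus strand), stood at 2.22, 4.23, 1.18 and 2.76 CPM in CD34Hi and at 1450, 1580, 698 and 1460 CPM in CD34Lo. Its lowest CD34Lo library, number 3, was still far above all 4 CD34Hi libraries. The log2 fold change was 9.11 (SE 0.53, adjusted p = 3.66e-07).

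The list held 4 other risers. Mef2c, a MADS-box factor that acts with myogenin on muscle genes, stood at 2.48, 4.76, 0 and 12.3 CPM in CD34Hi and at 64.5, 137, 28.5 and 70.5 CPM in CD34Lo (log2 fold change 4.44, SE 0.69, adjusted p = 0.00186; 0.0532 without the block). Zbtb18, a zinc-finger repressor, rose from 5.64 ± 1.1 to 53.8 ± 17.1 CPM (3.22 on the log2 scale, adjusted p = 0.000385). Tcf12, an E protein that pairs with the myogenic factors on DNA, rose from 42.2 ± 9.33 to 157 ± 25.4 CPM (1.89, adjusted p = 0.00226). Six4, a homeobox factor upstream of the myogenic genes, rose from 6.15 ± 1.79 to 29.5 ± 9.97 CPM (2.29, adjusted p = 0.0114), and its adjusted p was 0.0621 without CD34Hi number 4.

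The factors of the earlier steps did not pass the test. Myf5 stood at 427 ± 94.4 CPM in CD34Hi and 323 ± 54.8 CPM in CD34Lo (adjusted p = 0.484), and Myod1 at 130 ± 71.3 and 140 ± 19.4 CPM (0.753). Pax7 stood at 30.7, 18.2, 17 and 19.3 CPM in CD34Hi and at 22.7, 25.9, 8.31 and 7.92 CPM in CD34Lo (adjusted p = 0.622). The gates overlapped for all 3 genes, and at this depth no difference was detectable in them. Myf6, the fourth of the MyoD family, was at 3.01 ± 0.841 and 1.91 ± 0.983 CPM (0.789).

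Factors that hold the myogenic genes back, such as the Id, Hes, Hey, Twist and Snai proteins, showed 0 calls among 14 tested of 20. In the same test, 0 were higher and 1 was lower at an unadjusted p under 0.05, and DESeq2 called 0 higher and 1 lower. Their median log2 fold change was -0.05.

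The promoters of the genes with the largest rises are shown because E-boxes, the sites bound by myogenin and its partners, are the textbook element of this class of gene. Sequences come from RefSeq on GRCm38.p6 and run up to the base before the transcription start, with bases inside annotated exons trimmed away. Capitals mark every CANNTG in the first 5 and, in Actc1, the CArG box (CC, then A or T only, then GG), the site of serum response factor. The coordinates are chr1:87205561-87205809 for Chrng, chr1:134193198-134193447 for Mybph, chr1:135836084-135836333 for Tnnt2, chr1:135799171-135799401 for Tnni1 and chr1:134289754-134289988 for Myog, all on the plus strand, and chr2:114052888-114053125 for Actc1 on the minus strand.
Chrng: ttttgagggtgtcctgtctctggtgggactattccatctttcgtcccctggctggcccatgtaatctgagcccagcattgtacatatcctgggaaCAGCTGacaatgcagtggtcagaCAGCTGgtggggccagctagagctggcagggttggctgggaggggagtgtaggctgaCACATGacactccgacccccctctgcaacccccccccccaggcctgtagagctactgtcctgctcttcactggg
Mybph: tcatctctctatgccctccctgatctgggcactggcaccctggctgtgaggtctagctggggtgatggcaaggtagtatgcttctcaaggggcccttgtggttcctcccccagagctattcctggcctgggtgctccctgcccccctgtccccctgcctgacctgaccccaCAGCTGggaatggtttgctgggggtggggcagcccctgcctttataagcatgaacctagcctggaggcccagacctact
Tnnt2: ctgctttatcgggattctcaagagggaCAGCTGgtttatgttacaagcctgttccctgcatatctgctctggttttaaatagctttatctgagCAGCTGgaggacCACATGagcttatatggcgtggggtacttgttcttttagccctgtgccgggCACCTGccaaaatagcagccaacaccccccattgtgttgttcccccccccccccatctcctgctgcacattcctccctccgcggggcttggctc
Tnni1: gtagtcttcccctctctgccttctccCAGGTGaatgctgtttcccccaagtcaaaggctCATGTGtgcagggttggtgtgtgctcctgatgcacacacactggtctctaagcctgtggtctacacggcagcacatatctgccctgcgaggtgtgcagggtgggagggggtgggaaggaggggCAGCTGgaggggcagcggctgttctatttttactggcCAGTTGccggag
Myog: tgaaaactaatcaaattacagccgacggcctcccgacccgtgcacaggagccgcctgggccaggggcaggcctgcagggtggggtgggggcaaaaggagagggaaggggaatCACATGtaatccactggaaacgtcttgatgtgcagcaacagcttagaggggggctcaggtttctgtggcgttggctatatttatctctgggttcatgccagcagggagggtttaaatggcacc
Actc1: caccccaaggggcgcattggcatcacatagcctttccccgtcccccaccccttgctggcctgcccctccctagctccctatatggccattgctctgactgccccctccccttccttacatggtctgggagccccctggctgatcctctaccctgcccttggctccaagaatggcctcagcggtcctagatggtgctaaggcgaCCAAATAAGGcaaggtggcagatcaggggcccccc

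The E-box CAGCTG stood 155 to 150 and 132 to 127 bases before the start of Chrng, 79 to 74 before Mybph, 223 to 218 and 157 to 152 before Tnnt2, and 68 to 63 before Tnni1. The CArG box of Actc1 read CCAAATAAGG and stood 47 to 38 bases before its start. The Myog window held CACATG at 138 to 133 bases and CAGTTG at 12 to 7 bases. The latter lies in the exon bases trimmed from the printed sequence, which the counts below include. Of the 15 genes, 11 had a promoter in the table, and 4 of the 11 held CAGCTG within 250 bases on either strand. Among the 15 largest fallers, 11 had a promoter and 1, Kcne4, held it. Over all 32851 promoters of the same length, 13% did. The looser CANNTG, which includes CAGCTG, stood in 7 and 6 of the 11 and in 66.2% of all promoters. The MEF2 site and a looser form of it with any bases in its middle stood in 0 of either group, and in 0.103% and 3.2% of all promoters. Both forms fix the outer bases, so sites that vary there were not counted. A loose CArG box, with any bases in its middle, stood in 9 and 9 of the 11, and in 67.1% of all promoters. The CArG box with only A or T inside, a form added after the sequences were seen, stood in 1 and 0 of the 11 and in 1.47% of all promoters. These counts describe letters in a window and say nothing of binding.

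Of the genes for leaving the cell cycle, 14 of 17 were tested and 1 rose. Cdkn1c, which encodes the inhibitor p57 (chr7:143458339-143461050, minus strand), stood at 3.66, 2.91, 2.53 and 1.95 CPM in CD34Hi and at 323, 320, 65.1 and 240 CPM in CD34Lo. As with Myog, number 3 was the lowest CD34Lo library and still lay far above CD34Hi. The log2 fold change was 6.24 (SE 0.42, adjusted p = 7.8e-07). Cdkn1a, the inhibitor p21, did not pass, at 801 ± 355 and 762 ± 255 CPM (adjusted p = 0.987), and the sign of its fold change near 0 turned with the scaling.

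Proliferation genes showed 0 calls among 30 tested of 31, with 3 higher and 1 lower at an unadjusted p under 0.05 in edgeR and 2 higher and 0 lower by DESeq2. Mki67, a marker of cycling cells, stood at 10.6, 20.9, 5.23 and 3.09 CPM in CD34Hi and at 13.4, 52.3, 22.6 and 31.5 CPM in CD34Lo. It was higher in CD34Lo in all 4 pairs, the gates overlapped, and it did not pass (log2 fold change 1.96, adjusted p = 0.0855). It did pass by DESeq2 (0.00435), without the filter on low counts (0.00628) and without CD34Lo number 1 (0.0179), and reached 0.543 without the block. E2f8, an atypical E2F factor that represses cell cycle genes, was among the 15 largest rises. It held 3 counts over CD34Hi and stood at 23.3, 26.1, 28 and 37.9 CPM in CD34Lo, a ratio of 223 (interval 76.2 to 1090, adjusted p = 0.000943). It shares 610 of its 5443 exon bases with Gm2788 on the opposite strand. The library kit does not mark strand, so reads of that stretch cannot be told apart.

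Fusion of myoblasts depends on a pair of membrane proteins, Myomaker and Myomixer. Of 27 genes of adhesion and fusion, 23 were tested and 2 rose. Tmem8c, the older symbol of Myomaker (chr2:27061636-27072179, minus strand), stood at 7.59, 2.91, 1.35 and 0.487 CPM in CD34Hi and at 612, 810, 303 and 773 CPM in CD34Lo. The lowest CD34Lo library was again number 3, and the gates did not overlap (log2 fold change 7.96, SE 0.56, adjusted p = 9.87e-07). Gm7325, the older symbol of Myomixer, had 0 counts in CD34Hi and 47 in CD34Lo and was below the filter on low counts, so it was not tested. Capn6, a calpain without protease activity that acts on the cytoskeleton, rose from 55.1 ± 44.1 to 401 ± 173 CPM (2.95, adjusted p = 0.000519). Cdh15, M-cadherin, an adhesion protein of satellite cells, stood at 124 ± 105 and 141 ± 101 CPM (adjusted p = 0.922).

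At the neuromuscular junction, 3 subunits of the acetylcholine receptor were the risers among 13 genes tested of 15. Before innervation the receptor carries the γ subunit (Chrng), which the ε subunit replaces later. Chrng had 1 count over all CD34Hi libraries and stood at 73.7, 71.8, 20.2 and 90 CPM in CD34Lo, a ratio of 1500 (interval 268 to 59100, adjusted p = 9.87e-07). Chrnd, the δ subunit, stood at 0.262, 0.528, 0.169 and 0.162 CPM in CD34Hi and at 117, 108, 31.2 and 171 CPM in CD34Lo (log2 fold change 8.9, SE 0.68, adjusted p = 2.32e-06). Chrna1, the α subunit that binds acetylcholine, was well above 0 already in CD34Hi, at 67.4, 164, 75.4 and 92.4 CPM, and stood at 595, 879, 351 and 677 CPM in CD34Lo (2.62, SE 0.32, adjusted p = 0.00021). For all 3 subunits number 3 was the lowest CD34Lo library and the gates did not overlap. Musk, the receptor kinase that gathers the channels at the synapse, did not pass, at 385 ± 117 and 440 ± 216 CPM (0.906).

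Many genes of the sarcomere and of excitation-contraction coupling rose. On 4 lists together (thin filament, thick filament, Z-disc and excitation-contraction coupling), 80 of 105 genes were tested, 27 rose, 1 fell and 52 did not pass. The share that rose was 33.8%, where 1.32% of all genes tested rose; the lists were chosen with earlier results of these data known, so this is a description. Their median log2 fold change was 1.6, and 62 of the 80 had a positive value. On the lists with 0 fallers, at most 4 members were lower at an unadjusted p under 0.05 in edgeR (the immediate early list), and DESeq2 called at most 1 lower per list.

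**Figure D2:**
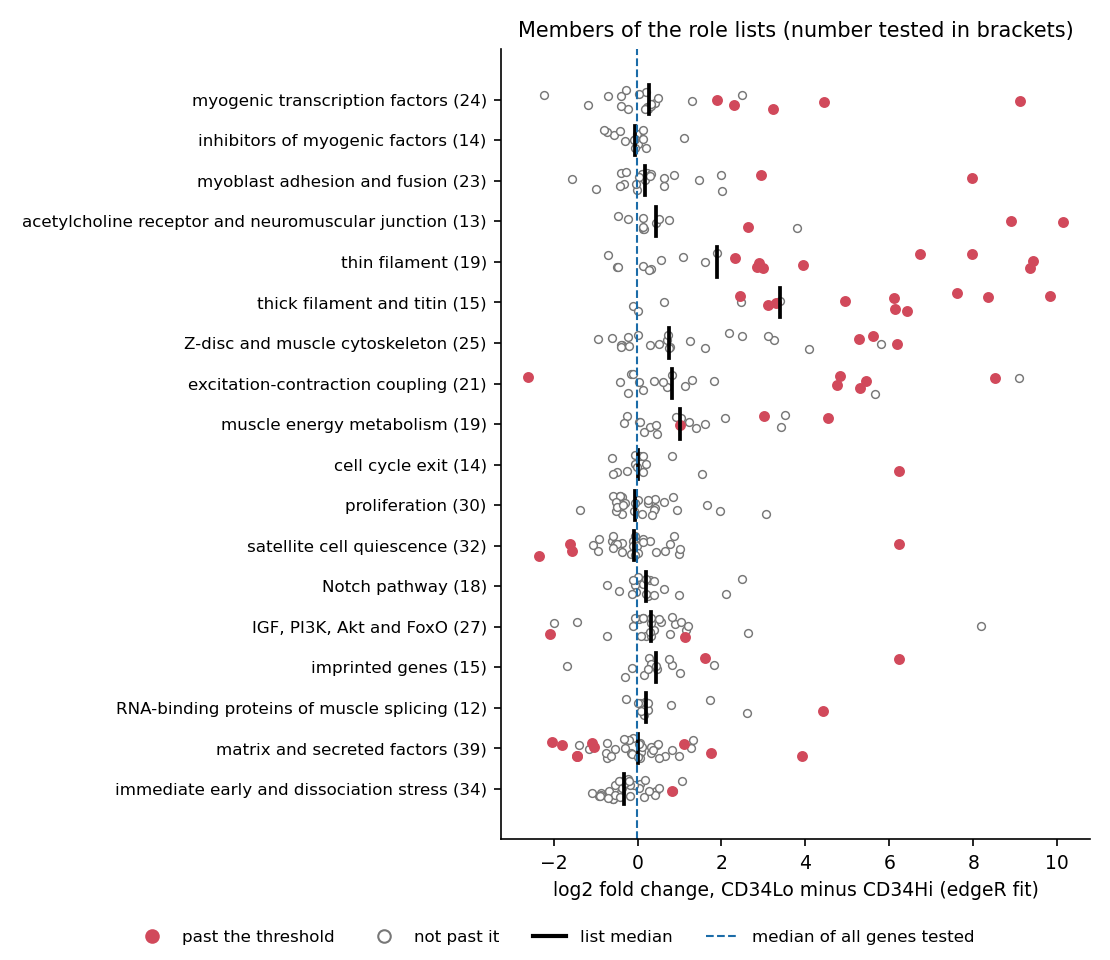
Log2 fold change of every tested member of the role lists (x axis, CD34Lo minus CD34Hi), with filled points for genes past the threshold, a bar at the list median and a dashed line at the median of all genes tested (-0.03); values of genes with few or no counts in CD34Hi depend on the prior count of the fit. Thick filament members (median 3.39) and thin filament members (median 1.9) lie farthest to the right, and medians of the quiescence (-0.08), proliferation (-0.07) and inhibitor (-0.05) lists lie near 0.

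Thin filaments are actin strands with tropomyosin and the troponins that sense calcium. Of 24 genes, 19 were tested, 9 rose (7 without the block) and 0 fell. Actc1, cardiac α-actin, which is the sarcomeric actin of embryonic and newly formed muscle (chr2:114047282-114053548, minus strand), stood at 0.392, 4.49, 0.844 and 2.44 CPM in CD34Hi and at 1690, 1970, 349 and 1330 CPM in CD34Lo (log2 fold change 9.43, SE 0.68, adjusted p = 1.18e-06). Acta1, the skeletal α-actin, stood at 25.4, 13.5, 9.62 and 6.17 CPM and at 1050, 1830, 966 and 1260 CPM (6.73, SE 0.43, adjusted p = 6.48e-07). Both actins lay higher in every CD34Lo library than in any CD34Hi library.

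The fetal troponins made the same step from almost no counts. Tnnt2, the cardiac and fetal form of the troponin that holds tropomyosin, had 1 count over CD34Hi and stood at 41.5, 71.2, 24.2 and 30.5 CPM in CD34Lo, a ratio of 999 (interval 179 to 39500, adjusted p = 9.92e-06). Tnni1, the inhibitory troponin of slow fibres, had 3 counts over CD34Hi and stood at 30.6, 35.4, 44.9 and 18 CPM in CD34Lo, a ratio of 255 (interval 87.1 to 1240, adjusted p = 0.0005). In contrast to most risers, number 3 was the highest CD34Lo library for Tnni1.

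The other 5 risers of the thin filament were weaker or less steady. Acta2, the smooth muscle α-actin, rose from 644 ± 119 to 3390 ± 1200 CPM (2.33 on the log2 scale, adjusted p = 0.000365). Neb, the ruler protein nebulin, rose from 16.7 ± 10.5 to 215 ± 55.9 CPM (3.94, adjusted p = 3.45e-05), and Tpm2, β-tropomyosin, from 17.2 ± 5.08 to 137 ± 45.4 CPM (2.99, adjusted p = 2.32e-05). Lmod2, which lengthens the filament, had an adjusted p of 0.0489 that missed the threshold without the block (0.124) and when any of the 8 libraries was left out. Tnni2, the fast inhibitory troponin, stood at 8.87, 47.1, 6.16 and 9.95 CPM in CD34Lo, with number 2 far above the rest. Its adjusted p was 0.043, 0.05 without the block and 0.25 without CD34Lo number 2, and it missed the threshold in 6 of the 8 omissions. Actins are near-identical in their coding sequence, and how the counting treated reads that fit several of them is not given, so their values are uncertain between members.

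Thick filaments are myosin rods with their light chains, held by titin and the M-band. Of 24 genes, 15 were tested, 10 rose (9 without the block) and 0 fell. Ttn, the giant spring of the sarcomere, stood at 5.75, 7.93, 3.04 and 16.6 CPM in CD34Hi and at 314, 403, 540 and 639 CPM in CD34Lo (log2 fold change 6.13, SE 0.6, adjusted p = 2.59e-05). Myl1, an essential light chain, rose from 3.35 ± 1.26 to 105 ± 64.6 CPM (4.94, adjusted p = 4.81e-06), and Mylk4, a kinase of the myosin light chain kinase family, from 0.69 ± 0.378 to 51.5 ± 18.7 CPM (6.42, adjusted p = 2.32e-05). These 3 genes showed no overlap between the gates.

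The myosin heavy chains that rose were developmental forms. Myh8, the perinatal myosin, had 2 counts over CD34Hi and stood at 16.2, 31.5, 20.3 and 31 CPM in CD34Lo, a ratio of 289 (interval 79.6 to 2390, adjusted p = 0.000754). Myh3, the embryonic myosin, had 2 counts over CD34Hi and stood at 8.3, 8.71, 2.62 and 7.25 CPM in CD34Lo, a ratio of 79.6 (interval 21.7 to 662, adjusted p = 0.0346). The call of Myh3 was lost without the block (0.079) and in 7 of the 8 omissions. Myh4, the myosin of adult fast fibres, did not pass, at 3.27, 0.793, 0.338 and 0 CPM in CD34Hi and 0, 7.99, 5.23 and 8.6 CPM in CD34Lo (adjusted p = 0.622). Genes of this family are close in sequence, and reads could be split between them.

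Mybph and Myom2 completed the set of large rises on this list. Mybph, a myosin-binding protein, had 1 count over CD34Hi and stood at 30.9, 89.8, 41.5 and 40.6 CPM in CD34Lo, a ratio of 1200 (interval 215 to 47500, adjusted p = 9.92e-06). Adora1, the adenosine A1 receptor, lies on the opposite strand, shares 1162 exon bases with Mybph and rose with it (ratio 225, interval 76.8 to 1090, adjusted p = 5.1e-05). Without strand, reads of this stretch, out of 2329 exon bases of Mybph and 5785 of Adora1, cannot be told apart. Myom2, an M-band protein of mature fibres, had 2 counts over CD34Hi and stood at 5.86, 15, 40.3 and 23.6 CPM in CD34Lo, a ratio of 244 (interval 67.2 to 2020, adjusted p = 0.00233).

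The smaller rises were Myl4, the embryonic light chain (2.48 ± 1.62 to 24.8 ± 14.1 CPM, adjusted p = 0.00068), Unc45b, the chaperone of myosin (4.44 ± 2.03 to 23.2 ± 4.72 CPM, adjusted p = 0.00802), and Mylpf, the fast regulatory light chain. Mylpf stood at 8.01, 106, 15.7 and 11.1 CPM in CD34Lo (adjusted p = 0.0141), and it missed the threshold in 3 omissions, at 0.0869 without CD34Lo number 2, the library that held most of it, 0.0712 without CD34Hi number 2 and 0.0548 without CD34Hi number 4.

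Of 32 Z-disc and cytoskeleton genes, 25 were tested, 3 rose (2 without the block) and 0 fell, with a median of 0.75. Actn2, the α-actinin that anchors the actin filaments, rose from 1.48 ± 1.57 to 58.6 ± 10.1 CPM (5.62 on the log2 scale, adjusted p = 0.000519). Klhl41, which stabilises nebulin, rose from 3.02 ± 1.07 to 115 ± 52.7 CPM (5.27, adjusted p = 3.24e-05). Klhl31, of the same family, had an adjusted p of 0.0358 that was lost without the block (0.138) and in 5 omissions. Des, the intermediate filament desmin, which myoblasts also make, did not pass at 235 ± 66.4 and 184 ± 34.6 CPM (0.622). Myo18b, an unconventional myosin needed for sarcomere assembly that stood on no list, rose from 2 counts over CD34Hi to 29.3, 24.8, 14.6 and 44.5 CPM (ratio 328, interval 90.6 to 2720, adjusted p = 5.5e-06), and shares 248 exon bases with 1700095B10Rik on the other strand. The remaining pair of the 15 largest rises were Myzap, a junction protein of heart muscle (0.302 ± 0.357 to 49.9 ± 29.3 CPM, log2 fold change 7.4, adjusted p = 1.38e-05), and Gpr50, an orphan receptor related to the melatonin receptors (0.33 ± 0.66 to 44.4 ± 21.7 CPM, 7.51, adjusted p = 4.88e-05).

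Excitation-contraction coupling joins the voltage sensor of the membrane to calcium release from the sarcoplasmic reticulum. Of 25 genes, 21 were tested, 5 rose and 1 fell. Atp2a1, the calcium pump of fast fibres, stood at 42, 59.4, 2.19 and 27.8 CPM in CD34Hi and at 427, 682, 412 and 804 CPM in CD34Lo (log2 fold change 4.82, adjusted p = 0.0005). Srl, the reticulum protein sarcalumenin, rose from 2.81 ± 2.14 to 115 ± 60.9 CPM (5.45, adjusted p = 0.00018), and Cacng1, a subunit of the voltage sensor, from 1.05 ± 0.889 to 26.1 ± 9.08 CPM (4.75, adjusted p = 0.000279). Stac3, which links the sensor to the release channel, rose from 0.692 ± 0.997 to 22.3 ± 13.7 CPM (5.29, adjusted p = 0.00935; 0.0575 without CD34Hi number 1). Trdn, the junction protein triadin, had no count in CD34Hi and 8.66 ± 9.21 CPM in CD34Lo, at least 68.8-fold higher against a floor of 3 counts over the group (adjusted p = 0.00361).

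The gene that fell on this list was Ryr3, a ryanodine receptor of immature muscle. It stood at 51.9, 110, 22.4 and 32.3 CPM in CD34Hi and at 8.15, 21.5, 0.769 and 15.7 CPM in CD34Lo (log2 fold change -2.61, adjusted p = 0.00587; 0.374 without the block). It shares 916 exon bases with Aven on the other strand.

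For energy metabolism, 19 of 21 genes were tested, 3 rose (2 without the block) and 0 fell. Mb, the oxygen carrier myoglobin, rose from 2.38 ± 2.36 to 49.5 ± 27.9 CPM (4.55 on the log2 scale, adjusted p = 4.31e-05), and Cox8b, a muscle subunit of cytochrome c oxidase, from 1.97 ± 0.673 to 16.6 ± 7.99 CPM (3.01, adjusted p = 0.0145). Pygm, the muscle glycogen phosphorylase, stood at 84.9, 133, 38.7 and 102 CPM and at 142, 222, 113 and 214 CPM. The gates overlapped, and its call rested on the pairing (1.02, adjusted p = 0.022; 0.456 without the block). Rbm24, an RNA-binding protein that controls muscle splicing, was the 1 riser among 12 tested of 14 on its list (0.69 ± 0.496 to 15.8 ± 5.96 CPM, adjusted p = 0.00303).

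Summed over a list, the gates parted for the thin filament, thick filament and coupling lists, and they overlapped for the Z-disc, proliferation and quiescence lists. Thick filament members summed to 77, 126, 48.4 and 137 CPM in CD34Hi and to 633, 1080, 913 and 1080 CPM in CD34Lo. Thin filament members summed to 2510, 3440, 2690 and 2770 CPM and to 7590, 11200, 5290 and 8990 CPM. Z-disc members summed to at most 3150 CPM in CD34Hi and to at least 3120 CPM in CD34Lo. Quiescence members summed to 19600, 30600, 20900 and 28100 CPM and to 19700, 18800, 25800 and 19600 CPM, with the gates overlapping. In a bulk library, more cells with a transcript and more transcript per cell cannot be told apart.

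**Figure D3:**
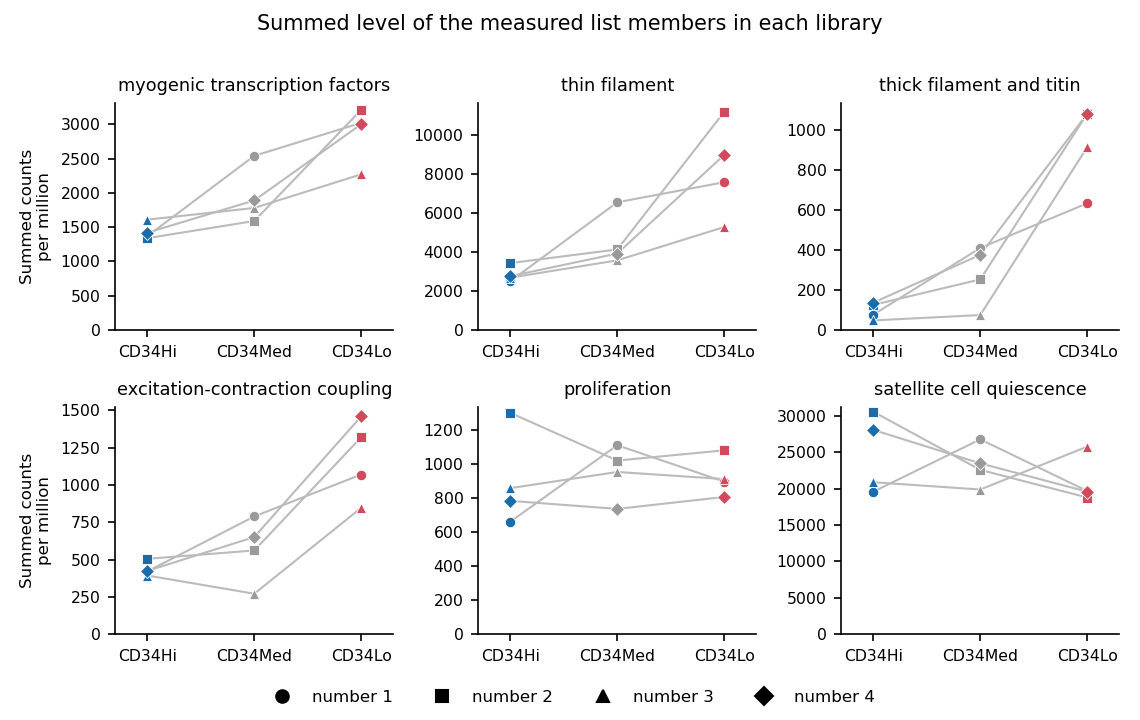
Summed level of the members of 6 lists in each library (y axis, CPM from 0), by gate, with libraries of 1 number joined by a line. All 4 lines end higher in CD34Lo than in CD34Hi for the transcription factors and for the thin filament, thick filament and coupling lists. The coupling line of number 3 dips at CD34Med (393, 271 and 847 CPM). The gates overlap for proliferation and quiescence.

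The 15 largest falls by the same rule were smaller than the 15 largest rises. They were Kcne4, Thy1, Cd34, Gm16897, Igfbp4, Ccl19, Oxtr, Anxa3, Bmper, Calcrl, Chrdl2, Ppl, Bdh2, Vtn and Fam132b, of which 7 stood on the lists. Their log2 fold changes ran from -2.5 to -1.44, and all 15 kept counts in both gates. Cd34, the marker of the sort, is among them as a check of the gates, beside its overlapping antisense transcript Gm16897. Larger falls lay outside the rule, and a pair of them were chosen here after their values were seen. Kcnk1, a potassium channel that overlaps Gm45875, averaged 1.76 CPM and had 82 counts in CD34Hi and 0 in CD34Lo, at least 30.6-fold lower against a floor of 3 counts over the group (adjusted p = 0.0347; 0.0448 without the block). Klk1, a kallikrein protease of a family of close copies, stood at 7.45, 49.4, 1.52 and 5.03 CPM in CD34Hi and at 0.143, 2.18, 0 and 0 CPM in CD34Lo, lower in all 4 pairs with overlap of the gates (-5.29, adjusted p = 0.000944; 0.19 without the block).

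**Figure D4:**
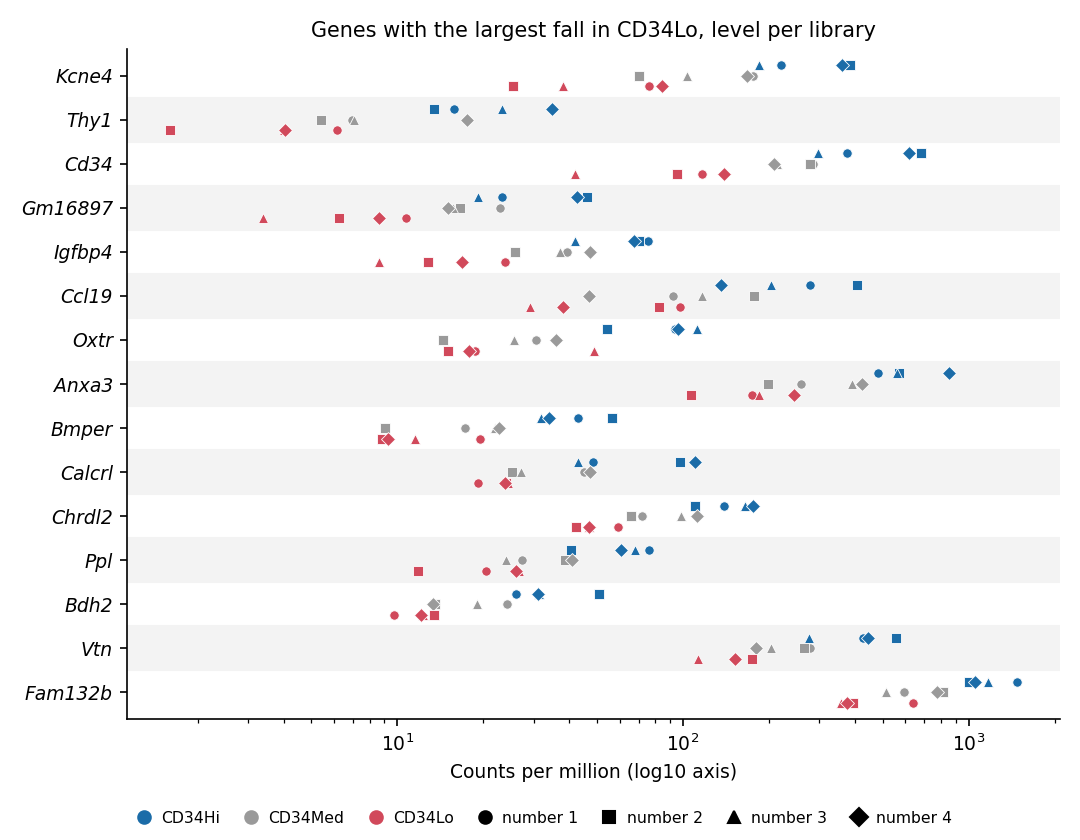
Level of the 15 genes with the largest fall in each of the 12 libraries (x axis, CPM on a log10 axis), coloured by gate, with a symbol for each number and symbols that may cover each other. The CD34Lo libraries lie below all CD34Hi libraries for every gene, for example 25.4 to 84.3 against 184 to 383 for Kcne4.

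Several of the 15 encode receptors or other membrane proteins, a class that was on no list and also held risers such as Chrnd, Adora1 and Gpr50. Kcne4, an accessory subunit of potassium channels, stood at 221, 383, 184 and 360 CPM in CD34Hi and at 76.1, 25.4, 37.9 and 84.3 CPM in CD34Lo (log2 fold change -2.5, SE 0.34, adjusted p = 0.000637). Oxtr, the oxytocin receptor, stood at 93.8, 54.2, 112 and 96.3 CPM and at 18.7, 15.1, 48.9 and 17.9 CPM (-1.89, SE 0.31, adjusted p = 0.00314). Thy1, a small glycolipid-anchored protein that fibroblasts also carry, stood at 15.8, 13.5, 23.3 and 34.9 CPM and at 6.15, 1.6, 4 and 4.05 CPM (-2.44, SE 0.44, adjusted p = 0.00701). Number 3 was the highest CD34Lo library for Oxtr, and for no gene of the 3 did the gates overlap.

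Calcrl, the receptor for CGRP and adrenomedullin, fell from 74.6 ± 34 to 22.9 ± 2.49 CPM (-1.62, adjusted p = 0.0146), and its call was lost in 5 of the 8 omissions, up to an adjusted p of 0.0982 without CD34Hi number 4. Its relative Calcr, the calcitonin receptor that holds satellite cells at rest, did not pass at 343 ± 208 and 201 ± 30.9 CPM (0.404). Anxa3, an annexin that binds membranes with calcium, fell from 617 ± 163 to 178 ± 56.5 CPM (-1.83, SE 0.22, adjusted p = 0.000205).

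Others of the 15 encode secreted proteins. Igfbp4, which binds insulin-like growth factors, stood at 75.5, 70.3, 42 and 67.4 CPM in CD34Hi and at 23.9, 12.8, 8.62 and 16.9 CPM in CD34Lo (-2.09, SE 0.3, adjusted p = 0.000937). Ccl19, a chemokine for lymphocytes and dendritic cells, stood at 278, 407, 203 and 136 CPM and at 97.3, 82.2, 29.2 and 38.1 CPM (-2.05, SE 0.29, adjusted p = 0.00091). Vtn, the adhesive plasma protein vitronectin, stood at 425, 555, 275 and 444 CPM and at 174, 175, 113 and 152 CPM (-1.45, SE 0.21, adjusted p = 0.000926). All CD34Lo libraries lay below all CD34Hi libraries for these 3 genes.

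Chrdl2, of the chordin family that binds bone morphogenetic proteins, stood at 139, 110, 165 and 176 CPM in CD34Hi and at 59.4, 42.3, 46.8 and 46.9 CPM in CD34Lo (-1.57, SE 0.23, adjusted p = 0.00107). Bmper, which also binds them, fell from 41.3 ± 11.1 to 12.3 ± 4.92 CPM (-1.81, adjusted p = 0.0214), a call lost in 5 omissions, up to 0.109 without CD34Lo number 4. Fam132b, the older symbol of the iron hormone erythroferrone, stood at 1480, 1000, 1170 and 1050 CPM and at 638, 395, 357 and 374 CPM (-1.44, SE 0.23, adjusted p = 0.00208), and shares 357 exon bases with Ilkap on the other strand. The calls of Ppl, the desmosome protein periplakin, and Bdh2, an enzyme of siderophore synthesis, were lost in 6 and 7 omissions (up to 0.108 without CD34Hi number 1 and 0.142 without CD34Hi number 2). Gm16897 is an antisense transcript that shares 148 of its 2492 exon bases with Cd34, and reads of that stretch cannot be told apart from those of Cd34.

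Of the genes associated with quiescence, 32 of 32 were tested, 1 rose and 3 fell, with a median of -0.08. Of the 32, 11 had a positive log2 fold change. At an unadjusted p under 0.05 in edgeR, 4 were higher and 9 lower, and DESeq2 called 2 higher and 3 lower. Those that fell past the threshold were Calcrl, Chrdl2 and Cd34, the last being the marker of the sort and no result, and the riser was Cdkn1c. Spry1, an inhibitor of receptor tyrosine kinases in resting cells, did not pass at 95.1 ± 32.4 and 63.5 ± 19.5 CPM (adjusted p = 0.324). Itga7, the α7-integrin used in the sort, did not pass at 378, 498, 365 and 795 CPM in CD34Hi and 643, 726, 1700 and 807 CPM in CD34Lo (0.309). Number 3 was the highest of these CD34Lo libraries, while it was the lowest for most risers.

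The Notch pathway, which keeps satellite cells at rest, showed 0 calls among 18 tested of 25 (1 higher and 1 lower at an unadjusted p under 0.05 in edgeR, and 1 higher and 0 lower by DESeq2), with a median of 0.21. Its target Heyl stood at 352 ± 173 and 307 ± 67.7 CPM (adjusted p = 0.978).

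In the insulin-like growth factor and FoxO pathway, 27 of 31 genes were tested, 1 rose and 1, Igfbp4, fell. Igf1, the growth factor itself, stood at 75.7, 130, 32.6 and 83.2 CPM in CD34Hi and at 140, 331, 65.2 and 198 CPM in CD34Lo. It was higher in CD34Lo in all 4 pairs while the gates overlapped (log2 fold change 1.14, adjusted p = 0.03; 0.536 without the block). Of the FoxO factors, which restrain growth and hold quiescence, Foxo1 did not pass at 40.6 ± 8.81 and 44.8 ± 10.6 CPM (0.909). Foxo4 did not pass at 1.64 ± 1.08 and 2.85 ± 1.67 CPM (0.756). Foxo3 had no count in CD34Hi and 1 in CD34Lo and was not tested.

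Imprinted genes, expressed from 1 parental allele and several of them linked to growth and stem cell rest, gave 2 risers among 15 tested of 17, and 0 fell. They were Cdkn1c and Mest, an enzyme-like protein of growing mesoderm, which rose from 11.2 ± 2.75 to 33.8 ± 8.85 CPM (1.61, adjusted p = 0.0156; 0.0508 without the block). Mest shares 912 exon bases with Copg2, and Cdkn1c 625 with Gm44732.

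Matrix and secreted factors moved in both directions. Of 43, 39 were tested, 3 rose and 6 fell, against 1 and 3 without the block. Vtn, Bmper and Ccl19 were the 3 that fell with and without it. Mmp2, a gelatinase, stood at 463, 261, 161 and 356 CPM in CD34Hi and at 100, 142, 66.5 and 139 CPM in CD34Lo, with no overlap (-1.45, adjusted p = 0.00325; 0.0794 without the block). Timp3, an inhibitor of such enzymes, fell from 643 ± 337 to 295 ± 96 CPM (-1.05, adjusted p = 0.0171; 0.332 without), and Ctgf, a matricellular growth factor, from 428 ± 235 to 180 ± 45.4 CPM (-1.08, adjusted p = 0.0473; 0.313 without). The risers were Postn, the matricellular protein periostin (1.1 ± 0.838 to 16.6 ± 2.51 CPM, adjusted p = 0.0358), Lama5, a laminin chain (12.8 ± 11.1 to 37.7 ± 17 CPM, adjusted p = 0.0146; 0.401 without), and Bgn, the proteoglycan biglycan (120 ± 39.6 to 256 ± 51.7 CPM, adjusted p = 0.0326; 0.12 without).

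Immediate early and stress genes, which dissociation can induce, were all tested (34 of 34), with 1 riser and 0 fallers. Their median log2 fold change was -0.33, and 11 of the 34 had a positive value. At an unadjusted p under 0.05 in edgeR, 3 were higher and 4 lower, and DESeq2 called 3 higher and 0 lower. The riser was Fos, at 1000, 1760, 639 and 590 CPM in CD34Hi and 2100, 2820, 798 and 1300 CPM in CD34Lo. The gates overlapped, and the call rested on the pairing (0.81, adjusted p = 0.043; 0.662 without the block).

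Several of these smaller changes also depended on single libraries. Cox8b, Mest, Lama5 and Timp3 lost the call in 4 of the 8 omissions, with highest adjusted p-values of 0.104, 0.109, 0.0886 and 0.128. Pygm and Postn lost it in 5 (0.143 and 0.162), Igf1 in 6 (0.155), Ctgf and Fos in 7 (0.222 and 0.251) and Bgn in 8 (0.174).

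Markers of other cell types were read for the whole of each list. Adult myofibre markers summed to 62.1 to 197 CPM in CD34Hi and to 579 to 1040 CPM in CD34Lo. Of 12 tested, 3 rose (Atp2a1, Mb and Myom2), which stand on the lists above too. The median log2 fold change of the 12 was 2.24, and 11 had a positive value. At an unadjusted p under 0.05 in edgeR, 6 were higher and 0 lower, and DESeq2 called 5 higher and 0 lower. The adult fast myosin Myh4 had at most 8.6 CPM in any library. Whether fragments of fibres had a part in the rise of the structural genes was not tested. Pericyte and smooth muscle markers summed to 941 to 1410 CPM and to 2170 to 4780 CPM. Acta2 alone stood at 2740, 4540, 2030 and 4250 CPM in the CD34Lo libraries, most of each sum. Of 10 tested, 5 had a positive log2 fold change, and the median was -0.1. Acta2 rose and Tagln fell, the latter from 323 ± 177 to 101 ± 55.1 CPM (adjusted p = 0.00117, and 0.126 without the block).

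Satellite cell markers summed to 5430 to 9970 CPM in CD34Hi and to 5810 to 8700 CPM in CD34Lo, and 1 of 10 (Chrdl2) fell. Fibro-adipogenic and fibroblast markers summed to 4580 to 7550 CPM and to 4880 to 8630 CPM, while their median log2 fold change was -0.59. Of 16 tested, 4 lay wholly below and 1 wholly above, 7 were lower and 2 higher at an unadjusted p under 0.05, and DESeq2 called 3 lower and 2 higher. The part of such cells in the falls of Thy1, Mmp2 and the secreted proteins was not tested. Among the 16, Col1a2, a chain of type I collagen, rose from 29.6 ± 6.55 to 88.3 ± 31.4 CPM (adjusted p = 0.0171; 0.145 without the block), and Thy1 and Dcn, the proteoglycan decorin, fell. Dcn went from 511 ± 279 to 210 ± 77.4 CPM (adjusted p = 0.0199; 0.423 without). Pdgfra, a defining marker of these cells, was at most 9.23 CPM in any library (adjusted p = 0.897), and Ly6a, which encodes Sca-1, stood at 48.2 ± 13.7 and 35.1 ± 16.3 CPM (0.71).

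For the lists of tenocytes, endothelium, immune cells and Schwann cells, edgeR called 0 of 4, 13, 14 and 8 genes tested. At an unadjusted p under 0.05 the genes higher and lower were 0 and 2, 1 and 3, 1 and 0, and 2 and 0, and DESeq2 called 0 and 1, 0 and 0, 1 and 0, and 2 and 0. Tenocyte markers summed to 14 to 22.8 CPM in CD34Hi and 2.46 to 12.5 CPM in CD34Lo, endothelial markers to 192 to 479 and 56.6 to 321 CPM, immune markers to 83.5 to 226 and 37.6 to 286 CPM, and Schwann cell markers to 277 to 1250 and 263 to 877 CPM. Tenocyte sums were lower in every CD34Lo library than in any CD34Hi library. The endothelial marker Pecam1, which encodes CD31, was at most 15.1 CPM (adjusted p = 0.618) and the leukocyte marker Ptprc, which encodes CD45, at most 7.84 CPM (0.254). Of 8 red blood cell markers, 7 had no count.

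Sex-linked genes gave 0 calls of 5 by edgeR and by DESeq2, and 0 at an unadjusted p under 0.05, and Xist had an adjusted p of 0.981. All 8 libraries held counts of Xist and of the Y-linked Ddx3y. Counts of Xist were 8546, 702, 5121 and 5154 in CD34Hi and 4609, 1421, 7477 and 6048 in CD34Lo. Counts of Ddx3y were 1905, 3712, 228 and 866 in CD34Hi and 1762, 2943, 197 and 778 in CD34Lo. The mix of sexes behind these counts was not tested. Number 2 had the least Xist and the most Ddx3y in each gate.

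Some of the genes that changed were neighbours on the chromosome. Of the 160 risers, 16 (10%) had another riser within 100 kb, where 3.82% of the 12055 tested genes with a position had a riser that near. Of the 55 fallers, 6 (10.9%) had another faller that near, where 1.11% did. On chromosome 1, Mybph, Adora1, Myog and Ppfia4 lay within 134193448 to 134332928. Chrnd and Chrng lay 4.6 kb apart and Tnni1 and Tnnt2 25.4 kb apart, on the same chromosome, which held 7 of the 15 largest risers and 4 of the 15 largest fallers. The share of all genes tested that lies on chromosome 1 was not computed, so these counts show no excess. They include the overlapping Mybph and Adora1, and Cd34, the marker of the sort, with Gm16897. Some of the neighbours overlap, as given above, and no test was made.

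CD34Med cells, which were not part of the contrast, took an intermediate place. The CD34Med mean lay between those of the other gates for 160 of 160 risers and for 55 of 55 fallers, on a log scale with 0.5 CPM added. The median place was 56.4% of the way from CD34Hi to CD34Lo for the risers and 49% for the fallers. Myog stood at 987, 233, 74.5 and 317 CPM in CD34Med, so that all 4 lay above every CD34Hi library and number 1 lay above the lowest CD34Lo library. These genes were chosen for their difference between the other gates, which favours a place between them, and the share over all genes tested was not computed. The CD34Med libraries also entered the estimate of the spread, and an intermediate place is a description, with no test.

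Number 3 was the CD34Lo library with the lowest level for 115 of the 160 risers, and numbers 1, 2 and 4 for 19, 17 and 9. Numbers 2 and 4 were the highest for 60 and 64. Among the 55 fallers, number 3 was also the lowest CD34Lo library for 30.

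Cells of high and low CD34 had also been sorted from young WT mice in 3 other experiments, there with 2 gates and no CD34Med, which allowed the CD34Lo against CD34Hi differences to be compared in 1 model of 29 libraries. Levels in this model are scaled over all 29 libraries and differ slightly from those above. The 3 contrasts share the lineage-labelled libraries, and experiment, genotype, gate boundaries and depth cannot be told apart. Of 14584 genes tested, the difference in lineage-labelled cells was larger for 5 genes and smaller for 0 against experiment 1 (0.0343% in all), larger for 17 (0.117%) and smaller for 3 (0.0206%) against experiment 2 (0.137% in all), and larger for 1 against experiment 3 (0.00686%). At an unadjusted p under 0.05 the numbers were 1220, 1393 and 928. With 1 of the 8 lineage-labelled libraries left out, 3 to 15, 7 to 30 and 0 to 12 genes passed. Without CD34Lo replicate 4 of experiment 2, an omission chosen after seeing the data, 19, 25 and 13 passed. With the number as a block within the lineage-labelled libraries, an alternative added after seeing the data, 25, 44 and 16 genes passed, and they held 5 of the 5, 19 of the 20 and 1 of the 1, the exception being Nr2f6 (adjusted p = 0.0555).

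Ttn, Mylk4, Rerg and Spg21 differed from experiments 1 and 2 alike. Ttn stood at 15.7 ± 2.01 and 33 ± 7.38 CPM in CD34Hi and CD34Lo of experiment 1, at 11.3 ± 4.98 and 28.9 ± 17.4 CPM in experiment 2 and at 7.78 ± 5.22 and 436 ± 121 CPM in lineage-labelled cells (difference of log2 fold changes 4.73, adjusted p = 0.00209, and 4.44, adjusted p = 0.00335). Against experiment 3, where Ttn stood at 0.387 ± 0.509 and 15.2 ± 10.4 CPM, the difference was 0.5 (adjusted p = 1). Mylk4 stood at 1.16 ± 0.293 and 2.83 ± 2.03 CPM in experiment 1 and at 0.645 ± 0.324 and 47.8 ± 17.3 CPM in lineage-labelled cells (4.96, adjusted p = 0.00258).

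Spg21 and Rerg differed in a different way, through a low level in lineage-labelled CD34Hi cells. Spg21, a cytosolic protein of the endosomal system, stood at 101 ± 13.6 and 115 ± 22.9 CPM in experiment 1 and at 7.97 ± 2.24 and 63.8 ± 32.6 CPM in lineage-labelled cells (2.8, adjusted p = 0.00209). Rerg, a small GTPase of the Ras family, stood at 13 ± 2.47 and 14.5 ± 5.82 CPM and at 0.119 ± 0.239 and 2.48 ± 0.823 CPM (4.59, adjusted p = 0.0147). In both cases the mean of the lineage-labelled CD34Lo cells lay below, not above, the mean of either WT gate. Unc45b, the fifth gene against experiment 1, had a log2 fold change of -1.62 there and 2.35 in lineage-labelled cells (3.97, adjusted p = 0.0147).

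Against experiment 2, sarcomere and receptor genes with larger differences were Acta1, Actc1, Chrnd, Mybph, Mylk4 and Ttn, and the cell cycle inhibitor Cdkn1c was another. Acta1 stood at 66 ± 28.5 and 187 ± 61.1 CPM in experiment 2 and at 13.2 ± 8.37 and 1190 ± 379 CPM in lineage-labelled cells (4.98, adjusted p = 0.000169). Chrnd stood at 0.812 ± 1.18 and 3.45 ± 2.29 CPM and at 0.264 ± 0.15 and 99.4 ± 52.8 CPM (6.49, adjusted p = 0.0204). Cdkn1c stood at 6.35 ± 1.38 and 37.9 ± 34 CPM and at 2.65 ± 0.749 and 222 ± 117 CPM (3.8, adjusted p = 0.0253). Mybph was the gene that differed from experiment 3 too, where it stood at 0.176 ± 0.248 and 0.0152 ± 0.0216 CPM, against 0.0323 ± 0.0646 and 47.1 ± 25.4 CPM in lineage-labelled cells (adjusted p = 0.0421, and 0.0116 against experiment 2). The others were Adora1, Ankrd10, Cnp, Lmnb2, Myzap, Pde2a, Popdc3, Rerg, Spg21 and Zfp106. Aff2, Capn10 and Nr2f6 had smaller values, at levels of at most 5.15 CPM in any lineage-labelled library. With 1 of the 8 libraries left out, the call of Mybph against experiment 3 was lost in 4 omissions (adjusted p up to 0.102), those of Chrnd and Actc1 against experiment 2 in 3 and 2 (up to 0.0528 and 0.0658), and that of Rerg against experiment 1 in 3 (up to 0.0711). Without CD34Lo replicate 2, Cdkn1c, Adora1 and Mybph lost it against experiment 2 (adjusted p = 0.0664, 0.0658 and 0.0517), and without CD34Hi replicate 3 Unc45b lost it against experiment 1 (0.0583). The calls of the 3 genes with smaller values were lost in 5 (Aff2, up to 0.132), 5 (Capn10, up to 0.144) and 6 omissions (Nr2f6, up to 0.144). Popdc3 lost its call in 4 omissions (up to 0.101), Lmnb2, Myzap and Zfp106 in 3 (up to 0.0822, 0.077 and 0.116) and Ankrd10 in 2 (up to 0.144).

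**Figure D5:**
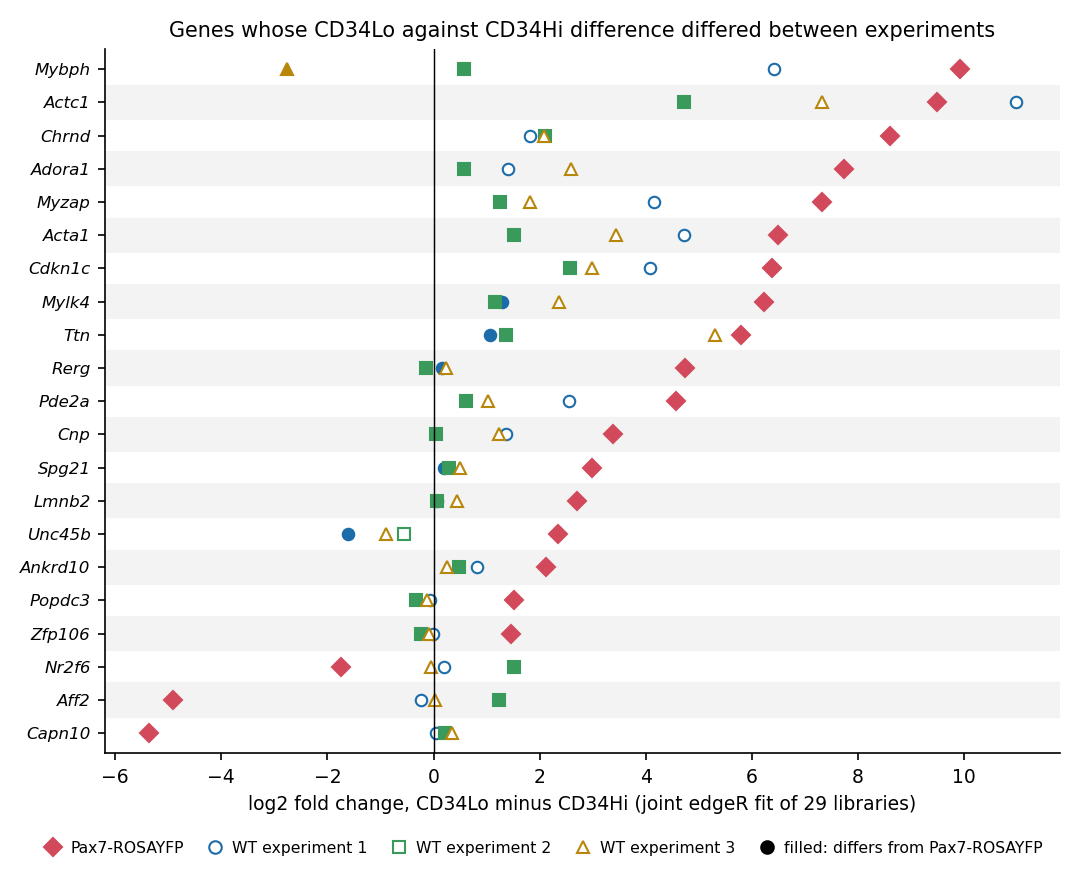
Log2 fold change of CD34Lo against CD34Hi (x axis) in lineage-labelled cells and in the 3 young WT experiments, for the 21 genes that differed from any of them; filled WT symbols mark a difference past the threshold. Most WT symbols of the upper rows lie to the right of 0 and to the left of the lineage-labelled cells, while Actc1 of WT experiment 1 (10.98) lies to the right of them (9.48).

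Myog was not among the genes that differed. It stood at 129 ± 91.9, 92.7 ± 8.96 and 66.9 ± 40 CPM in WT CD34Lo cells of experiments 1, 2 and 3 and at 1210 ± 397 CPM in lineage-labelled CD34Lo cells. WT CD34Hi cells stood at 0.0198 ± 0.0397, 0.473 ± 0.571 and 1.21 ± 1.11 CPM and lineage-labelled CD34Hi cells at 2.44 ± 1.08 CPM. The level of Myog was thus higher in the lineage-labelled cells of both gates, and the differences of its log2 fold changes were -2.9 (adjusted p = 0.639), 1.2 (0.763) and 3.2 (0.204). Tmem8c likewise stood at 39.2 ± 26.2, 23.6 ± 6.77 and 12.9 ± 1.68 CPM in WT CD34Lo cells and at 581 ± 220 CPM in lineage-labelled CD34Lo cells, with differences of 2.4 (0.584), -3.88 (0.775) and -0.06 (1). These p-values miss the threshold and do not show that the fold changes were alike.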

How the data were processed

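Deposited counts were used, which per the labels' protocols came from SMART-Seq v4 cDNA of 0.2 to 0.4 ng RNA or 400 cells and Nextera XT libraries. The submitters' processing notes name HTSeq, Partek 7.0, TopHat2 2.1.1, Trim Galore, bcl2fastq 2.17.1 and the build mm10. The annotation, the role of each tool and whether counting used strand are not given there. The table holds 1 row for each of 24421 gene symbols.

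Counts were tested with the edgeR 4.0.16 quasi-likelihood F-test in R 4.3.3 on the 12 libraries of the experiment, with gate and number as terms, TMM scaling, filterByExpr (minimum count 10, minimum total 15) and Benjamini-Hochberg adjustment over all genes tested, threshold 0.05. The table's gates High, Low and Neg were matched to CD34Hi, CD34Med and CD34Lo in order of CD34. What the number marks is not in the labels. Deviations from the gate mean correlated by 0.227, 0.204, 0.206 and 0.195 between CD34Hi and CD34Lo libraries of 1 number, each the highest value of its libraries between these gates, so the block was kept. With CD34Med the pairing was less clear: same-number values ran from -0.0377 to 0.458 with CD34Hi and from 0.065 to 0.233 with CD34Lo, and CD34Hi 2 correlated more with CD34Med 1 (0.229) than with CD34Med 2 (0.182). Replicate libraries were not copies (chi-square per degree of freedom 22.8 to 89.1). Differences between experiments were tested in 1 edgeR model of 29 libraries without a block, of 4.13 to 70.46 M counts.

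Named genes were the 15 largest rises and falls that passed with and without the block, averaged at least 8 CPM and did not overlap, list members that passed, a set of 25 marker and pathway genes, and all genes that differed between experiments. Alternatives were DESeq2 1.42.0, other scalings and filters, no block, fewer libraries and each library left out. A block within the lineage-labelled libraries of the joint model was added after seeing the data. Scripts were tested on simulated data. The members and lists were chosen with earlier results of these data known. Positions are GENCODE M21 on mm10, and 22 of 30 promoters were found in RefSeq.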

Additional observations from a re-analysis of the deposited data

Results flagged for a closer look

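In a group of 4, a library was set apart where its gap to the nearest other exceeded Dixon's 95% critical share of the range, which chance gives in about 1 of 20 groups. This held for 20 of 179 groups, in CPM. Where all other libraries of a group held 0, the gap equals the range, so the flag was fixed in advance. The rate of 1 in 20 does not apply to such groups, and the 20 of 179 cannot be read against it. In CD34Hi the library set apart was the only library above 0 for Chrng (0.264), Tnnt2 (0.264), E2f8 (0.793), Myom2 (0.528), Gpr50 (1.32), Myh3 (0.528) and Ptprc (2.11), all number 2. The same held for Mybph (0.131) and Adora1 (0.392), both number 1. Unc45b in number 4 (7.47 against 3.14 to 3.71) and Pax7 in number 1 (30.7 against 17 to 19.3) were the other CD34Hi values.

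In CD34Lo, number 3 was low for Myog (698 against 1450 to 1580) and high for Oxtr (48.9 against 15.1 to 18.7), Itga7 (1700 against 643 to 807) and Foxo3 (0.154 against 0). Number 2 was high for Tnni2 (47.1 against 6.16 to 9.95) and Mylpf (106 against 8.01 to 15.7) and low for Pecam1 (3.2 against 10.4 to 11.6). Number 1 was low for Calcrl (19.2 against 23.8 to 24.5) and high for Fam132b (638 against 357 to 395).

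Differences of log2 fold changes between lineage-labelled cells and WT experiments were flagged by the test of the difference itself. Against experiment 1 they were Mylk4 4.96, Rerg 4.59, Spg21 2.80, Ttn 4.73 and Unc45b 3.97. Against experiment 2 they were Acta1 4.98, Actc1 4.77, Adora1 7.17, Ankrd10 1.64, Cdkn1c 3.80, Chrnd 6.49, Cnp 3.32, Lmnb2 2.64, Mybph 9.35, Mylk4 5.07, Myzap 6.06, Pde2a 3.95, Popdc3 1.85, Rerg 4.88, Spg21 2.68, Ttn 4.44 and Zfp106 1.68, and Aff2 -6.14, Capn10 -5.58 and Nr2f6 -3.27. Against experiment 3 it was Mybph 12.68. Values of genes with few counts, such as Mybph, depend on the prior count of the fit.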

How the results depend on the processing

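Against 215 genes, 113 passed without the replicate block (110 of them among the 215), and 213 and 126 in the 8 CD34Hi and CD34Lo libraries with and without it (190 and 121 among the 215). DESeq2 with the block called 502, which held all 215. Without the filter on low counts 357 passed. RLE size factors gave 212, a minimum of 3 CPM in 4 libraries 219, and a mean of at least 8 CPM, chosen after seeing the data, 212. Total counts alone gave 238 and moved the median log2 fold change of all genes from -0.025 to 0.091. With 1 library left out, 116 to 208 passed.

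For the differences from experiments 1, 2 and 3 (5, 20 and 1 genes), DESeq2 called 76, 67 and 60, no filter gave 7, 26 and 8, and the libraries of 2 experiments alone 6, 18 and 2. A replicate block within the lineage-labelled libraries, added after seeing the data, gave 25, 44 and 16. Without CD34Lo replicate 4 of experiment 2, chosen after seeing the data, the counts were 19, 25 and 13. With 1 lineage-labelled library left out they ran from 3 to 15, 7 to 30 and 0 to 12. Against experiment 1 the libraries that moved the count by over 1.5 times were CD34Hi 1 (9) and 3 (3) and CD34Lo 1 (15) and 3 (11), and against experiment 2 CD34Lo 2 (7) and 4 (13). Against experiment 3 every omission did, and 0 passed in edgeR without CD34Hi 3 or 4 or CD34Lo 2 or 4 (759, 1095, 883 and 862 at an unadjusted p under 0.05).

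Of 72 named genes called between the gates, 48 kept their call under every alternative run, 24 lost it under at least 1 and 0 reversed. Of 17 uncalled, Mki67 gained a call under 3 alternatives and Ptprc under 1. Of the 26 differences between experiments, 10 kept it. Reversals were seen for 4 uncalled genes. Cdkn1a (-0.02) gave 0.01 by DESeq2, RLE and no filter, 0.08 by total counts and -0.24 to 0.26 in omissions. Omissions gave -0.04 to 0.31 for Foxo1, -0.56 to 3.07 for Pdgfra (0.95 with all libraries) and -0.21 to 0.23 for Xist. The cause was not tested. At 4.13 to 7.08 M counts per library, Foxo3 and Gm7325 had too few counts to test, and why was not tested.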

Other observations

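Several genes on no list also changed, and those named here were chosen after their values were seen. Adam12, a membrane protease of fusing myoblasts, rose from 1.44 ± 1.41 to 31.1 ± 5.91 CPM (edgeR adjusted p = 0.000445), and Mypn, a Z-disc protein, from 3 counts over CD34Hi to 17.1 ± 9.69 CPM, a ratio of 131 (interval 44.4 to 635, adjusted p = 0.0005). Trim55, a ubiquitin ligase of the M-band, rose from 0.271 ± 0.437 to 27.4 ± 16 CPM (adjusted p = 0.00107), and Homer2, a scaffold of calcium channels, from 3.12 ± 0.805 to 33.2 ± 13.8 CPM (adjusted p = 0.00152). Fndc5, the precursor of irisin, had no count in CD34Hi and 10.3 ± 5.8 CPM in CD34Lo, at least 81.3-fold higher (adjusted p = 0.00226). Gapdh, often used as a reference gene, rose from 1180 ± 187 to 2110 ± 291 CPM, with no overlap (0.85 on the log2 scale, adjusted p = 0.043; 0.112 without the block), and overlaps Iffo1 on the opposite strand.

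Some abundant fallers passed with the numbers paired and missed the threshold without, while others, such as Anxa3 and Fam132b, passed both ways. Gal, the neuropeptide galanin, stood at 7920, 7560, 8530 and 3850 CPM in CD34Hi and at 2380, 2600, 1780 and 835 CPM in CD34Lo, with no overlap (-1.92, adjusted p = 0.000754; 0.0757 without the block). Neu2, a cytosolic sialidase, stood at 1410, 3080, 716 and 2100 CPM and at 626, 819, 172 and 620 CPM, lower in all 4 pairs with overlap of the gates (-1.72, adjusted p = 0.000163; 0.15 without). Actg1, a cytoplasmic actin, fell from 6180 ± 1230 to 3210 ± 1130 CPM (-1, adjusted p = 0.028; 0.231 without), opposite in direction to the sarcomeric actins.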
